A study of Mus musculus with 12 samples.

Results

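Among the 584 genes that the study listed as differing between the hippocampus of SH and EE mice, 27 are listed under a provisional symbol, either Gm followed by digits or a clone name ending in Rik. For 2 of them, E130012A19Rik and Gm42387, RefSeq holds that symbol as an older name of another. All 27 rows with such a symbol were taken, 20 Gm and 7 Rik, whatever their values, and set against the other 557 genes of the list. RefSeq typed 15 of the 27 as lncRNA, 5 as pseudogene and 6 as protein coding, and Gm42355 was not found. A group name of noncoding genes and pseudogenes therefore does not hold for the 6 coding genes, which are 2210418O10Rik, Gm14296, Gm14305, Gm14325, D130040H23Rik and E130012A19Rik. The mice were male C57BL/6 weaned at 3 weeks of age and sampled at 8 weeks, after 5 weeks in standard cages (SH, n = 3 libraries) or in an enriched environment (EE, n = 3 libraries) with toys, tunnels and hideouts that were changed weekly. The labels name no drug or transgene, and their titles mark SH as control and EE as the treated group. Neither the labels nor the methods say whether a library came from 1 mouse or from pooled tissue, so the p-values measure the spread between these libraries. The hippocampus holds many cell types, and in such bulk RNA more cells of a type and more RNA per cell cannot be told apart.

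Long noncoding RNAs (lncRNAs) are transcripts that are not translated into a known protein, and many lie beside, inside or antisense to coding genes and are restricted to few tissues. Processed pseudogenes are copies of a messenger RNA that were reverse transcribed and inserted elsewhere in the genome, so they lack introns and resemble the exons of their parent gene closely. C2H2 zinc finger genes encode DNA-binding proteins, and a large share of them, the KRAB zinc finger genes, are repressors that lie in tandem clusters grown by repeated duplication. For pseudogenes and for such duplicates, a short read can match several places in the genome, and the way such reads were counted is not given in the sources used here.

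The closest coding gene is given for 4 of the 5 pseudogenes, from an alignment of the pseudogene to all coding transcripts. Gm7099 aligned to Ube2f, which encodes a NEDD8-conjugating enzyme, at 97.6% identity. Gm5454 aligned to Etv1, an ETS transcription factor, at 98.4% identity over 2390 aligned positions with 14 mismatches. Gm7367 aligned to Ubald2 at 98.4% identity with 2 mismatches, and the remaining differences were gaps. Gm1943 aligned to Wdr70, which encodes a WD repeat protein, at 98.02% identity. All 5 pseudogenes had a single exon block. The 30-base stretches below, 5′ to 3′ on the strand of the gene (RefSeq, GRCm38), show how little separates a read of a pseudogene from a read of its parent, and capitals mark the bases that differ.
Gm7099, chr12:9429864-9429893, plus strand: acatcacGgaaacgAgggaaatatCtctaa
Ube2f, chr1:91276426-91276455, plus strand: acatcacAgaaacgGgggaaatatGtctaa
Gm5454, chr13:103357242-103357271, plus strand: ggaaggacccaTgtaccagTggcgaggatc
Etv1, chr12:38856972-38857001, plus strand: ggaaggacccaCgtaccagAggcgaggatc
Gm7367, chr7:60156029-60156058, plus strand: cccacgtggccccccAgagcatcgcagggg
Ubald2, chr11:116438231-116438260, plus strand: cccacgtggccccccGgagcatcgcagggg

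Of the 6 coding genes, 4 lie in a zinc finger cluster on distal chromosome 2: 2210418O10Rik, Gm14296, Gm14305 and Gm14325. They share a coding exon, which was identical in 2210418O10Rik and Gm14296 and differed from theirs at 4 positions in both Gm14305 and Gm14325 (96.9% identity). A 30-base stretch of that exon is shown for the 4 genes, with capitals where a base differs from 2210418O10Rik.
2210418O10Rik, chr2:176235399-176235428, plus strand: ctataaaggtgtgatgctagagacctatag
Gm14296, chr2:176918950-176918979, minus strand: ctataaaggtgtgatgctagagacctatag
Gm14305, chr2:176719037-176719066, plus strand: ctaCaaGggtgtgatgctagagacctataA
Gm14325, chr2:177834537-177834566, minus strand: ctaCaaaggtgtgatgctagagacctatag

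Library depth was 31969156 to 40319498 reads for SH and 37507694 to 53943195 reads for EE. The 27 genes together took between 0.251% and 0.279% of the reads of the listed genes in a library, and their smallest count in any library was 19 reads. FPKM is the read count per kilobase of the gene and 1000000 reads of the library, and values are mean ± SD of 3 libraries unless a library is named. Of 36 marker genes of hippocampal cell types, 6 were on the list: Man1a (CA1 pyramidal) and P2ry12 (microglia) higher in EE, and C1ql2 (dentate granule), Nptx1 (CA3 pyramidal), Aldh1l1 (astrocyte) and Cldn5 (endothelium) lower. The list holds only genes selected for a difference, so the other markers could not be examined, and the part of cell composition in the differences was not tested.

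In EE mice 15 of the 27 genes had a higher and 12 a lower level, so 55.6% were higher, against 231 higher and 326 lower (41.5% higher) among the other genes of the list. At an unadjusted edgeR p under 0.01, 8 genes rose and 6 fell. Over all 584 genes, 59.8% passed this threshold, 19.2% as higher and 40.6% as lower. The 8 that rose were the lncRNAs Gm35037, Gm32810, Gm34466, Gm42127, Gm33533, 4930447M23Rik and Gm34583 and the coding gene D130040H23Rik. The 6 that fell were the coding gene 2210418O10Rik, the pseudogenes Gm14586 and Gm1943, the lncRNAs Gm33239 and Gm35466, and Gm42355. The other 13 genes had p between 0.0102 and 0.0375. The study set a p-value of 0.01 in edgeR for its whole list. Not passing here refers to a separate fit on the listed genes alone. After Benjamini-Hochberg adjustment over the whole list, 27 of the 27 were under 0.05, as were 99.8% of all listed genes, so the adjusted p separated nothing. The adjusted p of edgeR is given below for each gene, with the unadjusted threshold of 0.01 deciding the call. The list was selected on these same libraries for a difference, so these p-values and counts describe the selected genes and are no independent evidence of a difference.

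The split of calls moved with the scaling of the libraries. TMM factors and DESeq2 size factors were computed from the listed genes alone, of which 246 were higher and 338 lower. TMM is built for data where the bulk of genes stays level, and every gene here was selected for differing. The median log2 fold change of all genes was -0.18, or -0.10 with TMM factors and -0.07 with DESeq2 size factors. Whether these factors suit such a list was not tested. With TMM factors 13 of the 27 were higher and 4 lower, and over all genes the calls went from 112 higher and 237 lower to 229 higher and 53 lower. With the sum of the listed genes as library size, 2 were higher and 12 lower, and over all genes 25 and 319. DESeq2 size factors raised the median log2 fold change of all genes by 0.11 and gave 13 higher and 3 lower among the 27, and 228 higher and 25 lower over all genes. The sign of the log2 fold change was the same for each of the 27 genes under every scaling tried, while which of them passed the threshold depended on it. The falls of Gm1943 and Gm35466 were no longer called with TMM factors, those of Gm1943, Gm35466 and Gm33239 with DESeq2 size factors, and those of these 3, Gm14586 and Gm42355 in the DESeq2 Wald test. The rises of 4930447M23Rik, D130040H23Rik, Gm32810, Gm33533, Gm34583 and Gm42127 were no longer called with the sum of the listed genes as library size. With that sum, the falls of E130012A19Rik, Gm13830, Gm41284, Gm42387, Gm7099 and Gm7367 gained a call. TMM factors and DESeq2 size factors each added calls for the rises of B230110G15Rik, B230209E15Rik, Gm14305, Gm14325 and Gm5454. The DESeq2 Wald test added those of 2010204K13Rik, B230209E15Rik, Gm14296, Gm14305, Gm14325 and Gm5454. Levels did not overlap between the SH and EE libraries in 23 of the 27 genes, with EE above in 12 and below in 11. Over all 584 genes the groups did not overlap in 90.9%, with EE above in 37.2% and below in 53.8%.

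**Figure D1:**
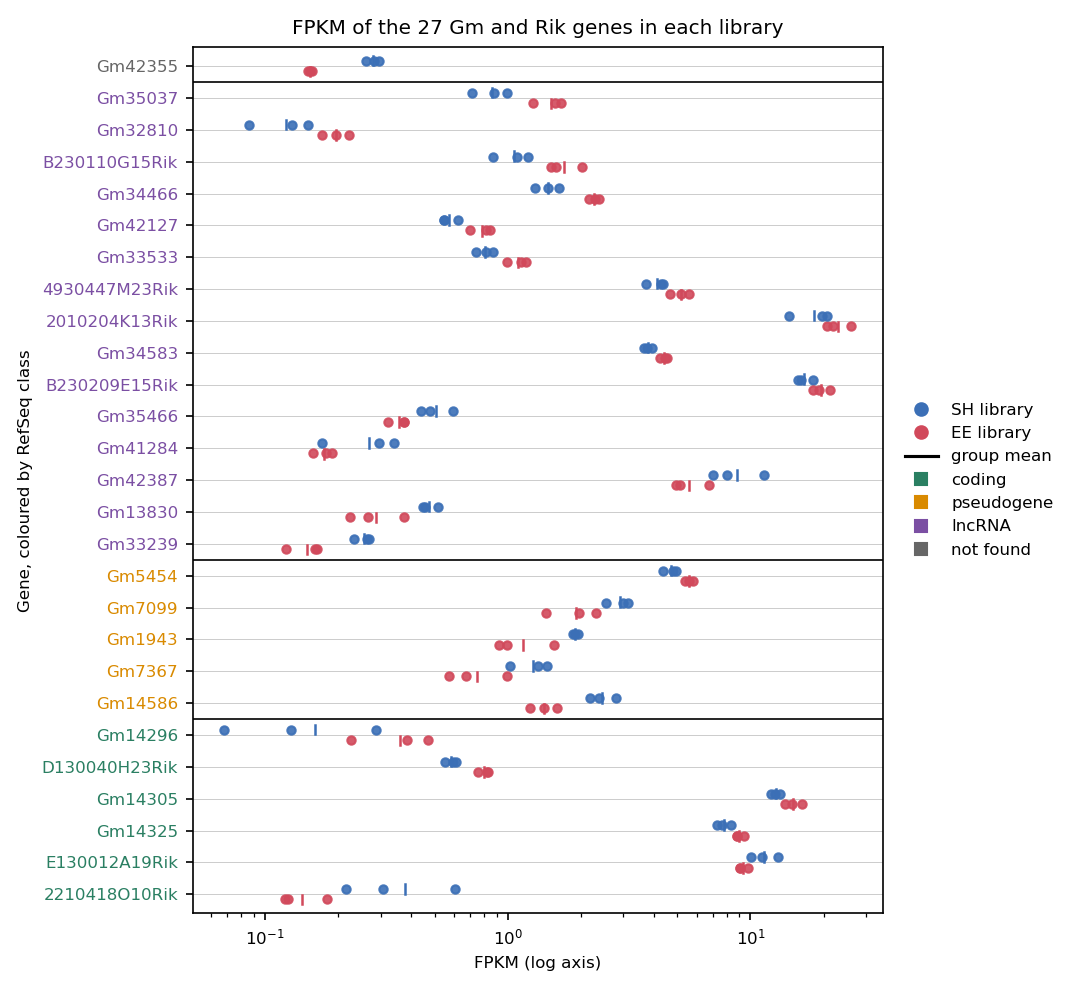
FPKM (log axis) of the 27 Gm and Rik genes in the 3 SH and 3 EE libraries, with group means as vertical ticks and genes grouped and coloured by RefSeq class. Levels ran from a mean of 0.159 FPKM (Gm32810) to 20.6 FPKM (2010204K13Rik), and the SH and EE libraries did not overlap in 23 genes.

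The coding genes were led by zinc finger genes, of which 5 carried at least 1 C2H2 finger motif in their RefSeq protein, 4 with a higher and 1 with a lower level in EE. Of these 5, 2 were called, D130040H23Rik as higher and 2210418O10Rik as lower, where 59.8% of all listed genes were called. Gm14305 and Gm14325 each encode 498 residues with 14 fingers, D130040H23Rik on chromosome 8 encodes 458 residues with 11 fingers, and 2210418O10Rik and Gm14296 each encode 134 residues with 1 finger. Among the 13 genes of the list named Zfp, 11 were higher in EE and 2 lower, and 5 and 1 of them passed the threshold (46.2% of the 13).

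D130040H23Rik (chr8:69271060-69303384, plus strand) had 0.552, 0.610 and 0.595 FPKM in SH and 0.821, 0.753 and 0.827 FPKM in EE. The 3 EE libraries were above the 3 SH libraries. The log2 fold change was 0.45 (SE 0.13, edgeR adjusted p = 0.0161). No near copy of its exons was found elsewhere, defined as at least 95% identity over at least 100 bases. The search started no match inside repeats masked in the genome, which covered 39.3% of its exons.

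Gm14305 (chr2:176708353-176721813, plus strand) had 13.3, 12.1 and 12.7 FPKM in SH and 14.8, 16.4 and 13.8 FPKM in EE. All EE libraries were above the SH libraries, and the log2 fold change of 0.24 (SE 0.08) did not pass the threshold (edgeR adjusted p = 0.0177). Gm14325 (chr2:177828991-177840336, minus strand) had 7.65, 7.26 and 8.33 FPKM in SH and 8.77, 9.41 and 8.77 FPKM in EE. Its groups did not overlap either, and its log2 fold change of 0.21 (SE 0.07) missed the threshold as well (edgeR adjusted p = 0.0176). Near copies elsewhere in the genome covered 89.1% of the exons of Gm14305 and 98.8% of those of Gm14325, so the reads of both may be shared with other loci.

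2210418O10Rik (chr2:176226565-176261872, plus strand) and Gm14296 (chr2:176892509-176927813, minus strand) lie 630636 bases apart and could not be told apart by sequence. Over the 8750 exon bases compared there were 0 differences, and over their whole spans, introns included, 35305 bases aligned with 0 mismatches and 3 gap positions. A read inside either gene therefore carries almost nothing that assigns it to one of them.

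2210418O10Rik had 0.307, 0.216 and 0.607 FPKM in SH and 0.180, 0.124 and 0.121 FPKM in EE. It fell by 1.44 on the log2 scale (SE 0.35, edgeR adjusted p = 0.0151), the largest difference of the 27 genes. SH replicate 3 stood well above the other SH libraries, and without it the log2 fold change was -0.89 and still passed the threshold. Gm14296 had 0.0679, 0.287 and 0.128 FPKM in SH and 0.225, 0.469 and 0.386 FPKM in EE. Its log2 fold change of 1.14 (SE 0.41) did not pass the threshold (edgeR adjusted p = 0.0212), and SH replicate 2 lay above EE replicate 1. Without SH replicate 2 its log2 fold change was 1.85 and passed.

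The reads of the pair were divided unevenly between libraries. In SH, Gm14296 took 19 of 105 reads of the pair in replicate 1 (18.1%, exact 95% interval 11.3 to 26.8%), 97 of 170 in replicate 2 (57.1%, 49.3 to 64.6%) and 45 of 259 in replicate 3 (17.4%, 13.0 to 22.5%). In EE it took 74 of 133 (55.6%, 46.8 to 64.2%), 174 of 220 (79.1%, 73.1 to 84.3%) and 182 of 239 (76.2%, 70.2 to 81.4%). The share in SH replicate 2 lay with that of EE replicate 1, far outside the intervals of the other SH libraries; the intervals cover counting error only. Summed, the pair had 4.70 ± 1.59 reads per 1000000 in SH and 4.39 ± 0.825 in EE. The log2 fold change of the sum was -0.11 (SE 0.22, edgeR adjusted p = 0.640), so the opposite differences of the pair were not found in its total.

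**Figure D2:**
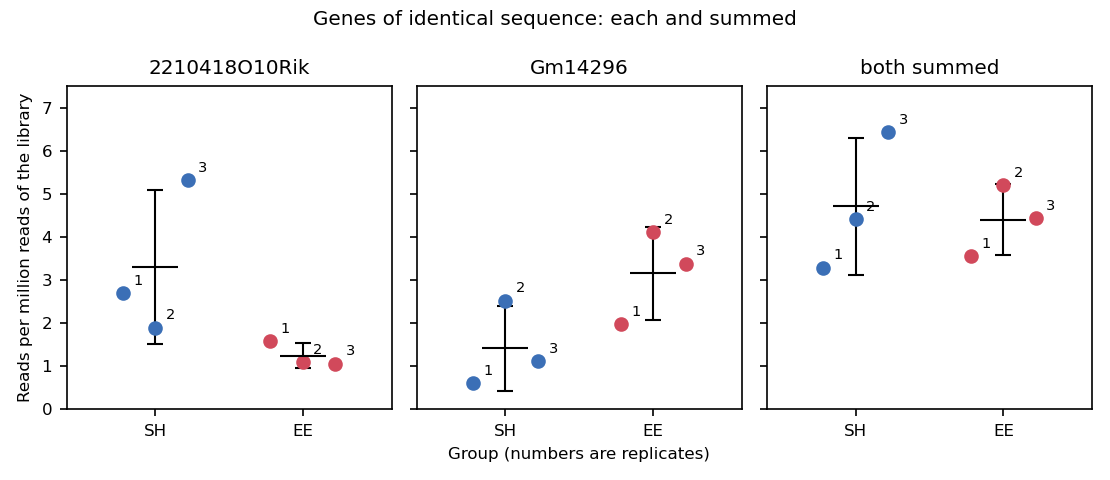
Reads per 1000000 reads of the library for 2210418O10Rik, Gm14296 and their sum in SH and EE, with replicate numbers at the points and mean ± SD as bars (n = 3). 2210418O10Rik lies lower and Gm14296 mostly higher in EE, while the sums of both groups overlap at 4.70 ± 1.59 and 4.39 ± 0.825.

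E130012A19Rik, a former name of Epop (chr11:97627387-97629716, minus strand), encodes a protein that binds elongin BC and the Polycomb complex PRC2 and carries no finger motif. It had 13.0, 10.04 and 11.2 FPKM in SH and 9.06, 9.75 and 9.09 FPKM in EE. The groups did not overlap, but EE replicate 2 lay close under SH replicate 2. The log2 fold change of -0.29 (SE 0.09) did not pass the threshold (edgeR adjusted p = 0.0168). It was -0.19 without SH replicate 1, and also -0.19 with DESeq2 size factors. Its exons had 66.9% GC, the highest of the 25 genes with a value. Mllt6 and Srcin1, both within 100000 bases of it, were on the list as well.

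Among the 5 pseudogenes, 4 had lower levels in EE and 1 a higher level. Gm14586 and Gm1943 fell, and in all 5 the SH and EE libraries did not overlap, where 59.8% of all listed genes were called and 90.9% did not overlap. Near copies covered between 47.6% (Gm7099) and 100% (Gm14586) of their exons. Genome matches under 100 bases or under 95% identity were not counted as near copies. Against the Ube2f transcript, Gm7099 aligned over 100% of its length.

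Gm14586 (chrX:52772290-52772771, minus strand) had 2.37, 2.78 and 2.19 FPKM in SH and 1.23, 1.59 and 1.40 FPKM in EE. The log2 fold change was -0.79 (SE 0.22, edgeR adjusted p = 0.0158) on counts of 22 to 51 reads. Gm1943 (chr8:109339787-109340908, minus strand), the Wdr70 copy, had 1.90, 1.94 and 1.86 FPKM in SH and 0.998, 1.56 and 0.925 FPKM in EE. The SH libraries were close together and EE replicate 2 stood nearer to them than the other EE libraries. Its log2 fold change was -0.72 (SE 0.21, edgeR adjusted p = 0.0161).

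Gm7367 (chr7:60155429-60156829, plus strand), the Ubald2 copy, had 1.45, 1.33 and 1.03 FPKM in SH and 0.571, 0.674 and 0.992 FPKM in EE. SH replicate 3 and EE replicate 3 nearly met. The log2 fold change of -0.73 (SE 0.24) did not pass the threshold (edgeR adjusted p = 0.0177). Gm7367 lies inside the spans of Snhg14 and Snrpn, on the opposite strand to both. Gm7099 (chr12:9429520-9430271, plus strand), the Ube2f copy, had 2.99, 3.14 and 2.54 FPKM in SH and 2.30, 1.44 and 1.97 FPKM in EE. Its EE libraries were all below its SH libraries, with a log2 fold change of -0.60 (SE 0.20, edgeR adjusted p = 0.0177).

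Gm5454 (chr13:103356181-103358567, plus strand) was the pseudogene with the higher level in EE, and Etv1 was the only 1 of the 4 closest coding genes above that was on the list. Gm5454 had 4.36, 4.79 and 4.95 FPKM in SH and 5.797, 5.61 and 5.36 FPKM in EE, a log2 fold change of 0.25 (SE 0.08, edgeR adjusted p = 0.0176). Etv1 had 8.17, 7.99 and 8.01 FPKM in SH and 8.64, 8.99 and 8.89 FPKM in EE, a log2 fold change of 0.13 (SE 0.04, edgeR adjusted p = 0.0170). Neither passed the threshold, and in both the EE libraries lay above the SH libraries. Per length, Gm5454 stood at 53.4%, 59.9% and 61.7% of Etv1 in SH and at 67.1%, 62.3% and 60.3% in EE, and these ranges overlapped. Near copies covered 86.3% of Gm5454, so reads of Etv1 counted on Gm5454, or the reverse, cannot be told apart here.

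Among the 15 lncRNAs, 10 had higher and 5 lower levels in EE, and 7 rose and 2 fell at the threshold. These 9 of 15 are 60% of the lncRNAs, close to the 59.8% called over all listed genes. Unlike in the pseudogenes, near copies were found over no more than 0.65% of the exons of any of the 14 with a known position. Masked repeats, where the search started no match, covered up to 44.8% of the exons of these lncRNAs. Their mean levels ran from 0.159 to 20.6 FPKM.

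Gm35037 (chr7:3452310-3475833, plus strand) rose most among the lncRNAs. It had 0.710, 0.997 and 0.876 FPKM in SH and 1.67, 1.56 and 1.27 FPKM in EE, and the 3 EE libraries all exceeded the SH libraries. The log2 fold change was 0.78 (SE 0.19, edgeR adjusted p = 0.0146). Its exons overlap those of the lncRNA Gm45920 on the opposite strand by 106 bases (6.69% of its exons); strandedness of the counting is not stated. Gm34466 (chr13:45246632-45267772, minus strand) had 1.47, 1.30 and 1.63 FPKM in SH and 2.29, 2.38 and 2.16 FPKM in EE. The gap between the groups was wider than the range within either, and the log2 fold change was 0.63 (SE 0.15, edgeR adjusted p = 0.0146).

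Gm32810 (chr1:112377329-112416918, minus strand) had 0.129, 0.151 and 0.0857 FPKM in SH and 0.223, 0.171 and 0.197 FPKM in EE. It was the gene with the lowest mean level and rose with a log2 fold change of 0.69 (SE 0.22, edgeR adjusted p = 0.0162). B230110G15Rik (chr6:138580624-138599314, plus strand) runs opposite to Lmo3, a LIM-domain transcriptional regulator whose span it overlaps. It had 1.22, 0.873 and 1.09 FPKM in SH and 1.59, 2.02 and 1.51 FPKM in EE. All EE libraries were higher, on counts of 26 to 66 reads, but the log2 fold change of 0.69 (SE 0.22) did not pass the threshold (edgeR adjusted p = 0.0170).

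Gm42127 (chr5:99967904-99976527, minus strand) lies on the same strand within the span of Hnrnpd, which encodes an RNA-binding protein that promotes decay of AU-rich messengers. It had 0.624, 0.547 and 0.548 FPKM in SH and 0.842, 0.703 and 0.811 FPKM in EE. The groups were apart, with a log2 fold change of 0.46 (SE 0.13, edgeR adjusted p = 0.0161). The related gene Hnrnpdl, 57050 bases away, was also on the list, and Hnrnpd was not. The part of unspliced Hnrnpd reads in these counts was not tested.

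Gm33533 (chr1:36712848-36744792, minus strand) had 0.738, 0.816 and 0.868 FPKM in SH and 1.14, 0.993 and 1.19 FPKM in EE, with EE above SH throughout. Its log2 fold change was 0.45 (SE 0.14, edgeR adjusted p = 0.0161), and 384 of its RefSeq exon bases (6.99%) are shared with 4933424G06Rik on the opposite strand. 4930447M23Rik (chr2:19344317-19352251, plus strand) had 4.29, 3.72 and 4.37 FPKM in SH and 5.61, 4.69 and 5.16 FPKM in EE. Its groups were also apart, with a log2 fold change of 0.32 (SE 0.10, edgeR adjusted p = 0.0162).

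Gm34583 (chr5:73370915-73392775, plus strand) had 3.76, 3.94 and 3.63 FPKM in SH and 4.26, 4.45 and 4.53 FPKM in EE. It was the smallest rise that passed the threshold, with a log2 fold change of 0.23 (SE 0.07, edgeR adjusted p = 0.0161), and its SD was 0.153 FPKM in SH and 0.140 FPKM in EE. RefSeq types it as lncRNA and GENCODE as a transcribed processed pseudogene. The lncRNAs of highest level were 2010204K13Rik (chrX:7411817-7422988, minus strand), with 18.3 ± 3.34 FPKM in SH and 22.9 ± 2.84 FPKM in EE, and B230209E15Rik (chr7:61529410-61615327, minus strand), with 16.7 ± 1.29 and 19.5 ± 1.69 FPKM. Their groups overlapped, and their log2 fold changes of 0.32 (SE 0.13, edgeR adjusted p = 0.0380) and 0.22 (SE 0.08, edgeR adjusted p = 0.0229) did not pass the threshold. Without SH replicate 1, that of 2010204K13Rik was 0.18.

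Gm33239 (chr5:126694279-126706598, plus strand) had the largest fall among the lncRNAs. It had 0.233, 0.264 and 0.269 FPKM in SH and 0.164, 0.161 and 0.122 FPKM in EE. All EE libraries were below the SH libraries, with a log2 fold change of -0.80 (SE 0.21, edgeR adjusted p = 0.0158). Gm35466 (chr8:122823424-122838033, plus strand) had 0.480, 0.593 and 0.440 FPKM in SH and 0.372, 0.376 and 0.323 FPKM in EE. The EE libraries were close together under the more spread SH libraries, with a log2 fold change of -0.50 (SE 0.15, edgeR adjusted p = 0.0161).

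Gm13830 (chr5:115301120-115320082, plus strand) lies 130 bases from Dynll1, a dynein light chain gene on the opposite strand. It had 0.517, 0.447 and 0.455 FPKM in SH and 0.225, 0.373 and 0.265 FPKM in EE, all lower, with a log2 fold change of -0.71 (SE 0.23, edgeR adjusted p = 0.0173). Gm41284 (chr15:30502993-30534114, plus strand) lies within Ctnnd2, the gene of delta-catenin at neuronal junctions, on the same strand, and the part of intron reads of Ctnnd2 in its counts was not tested. It had 0.296, 0.172 and 0.339 FPKM in SH and 0.188, 0.158 and 0.179 FPKM in EE. SH replicate 2 lay among the EE libraries, the log2 fold change was -0.62 (SE 0.22, edgeR adjusted p = 0.0217), and without SH replicate 3 it was -0.41.

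Gm42387 is an older symbol of Snhg14, the long host transcript of small nucleolar RNAs in the imprinted Prader-Willi region, but its FPKM rests on a model of 353 bases against 24206 exon bases of Snhg14, and no position is given here for that model. It had 7.0, 11.4 and 8.01 FPKM in SH and 5.14, 4.95 and 6.72 FPKM in EE. All EE libraries were lower, SH replicate 2 stood highest, and the log2 fold change was -0.64 (SE 0.21, edgeR adjusted p = 0.0176), or -0.41 without SH replicate 2. Gm42355, which was not found in RefSeq, had 0.281, 0.262 and 0.295 FPKM in SH and 0.156, 0.154 and 0.150 FPKM in EE. The EE libraries were nearly equal and all below SH, and the log2 fold change was -0.87 (SE 0.20, edgeR adjusted p = 0.0144).

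**Figure D3:**
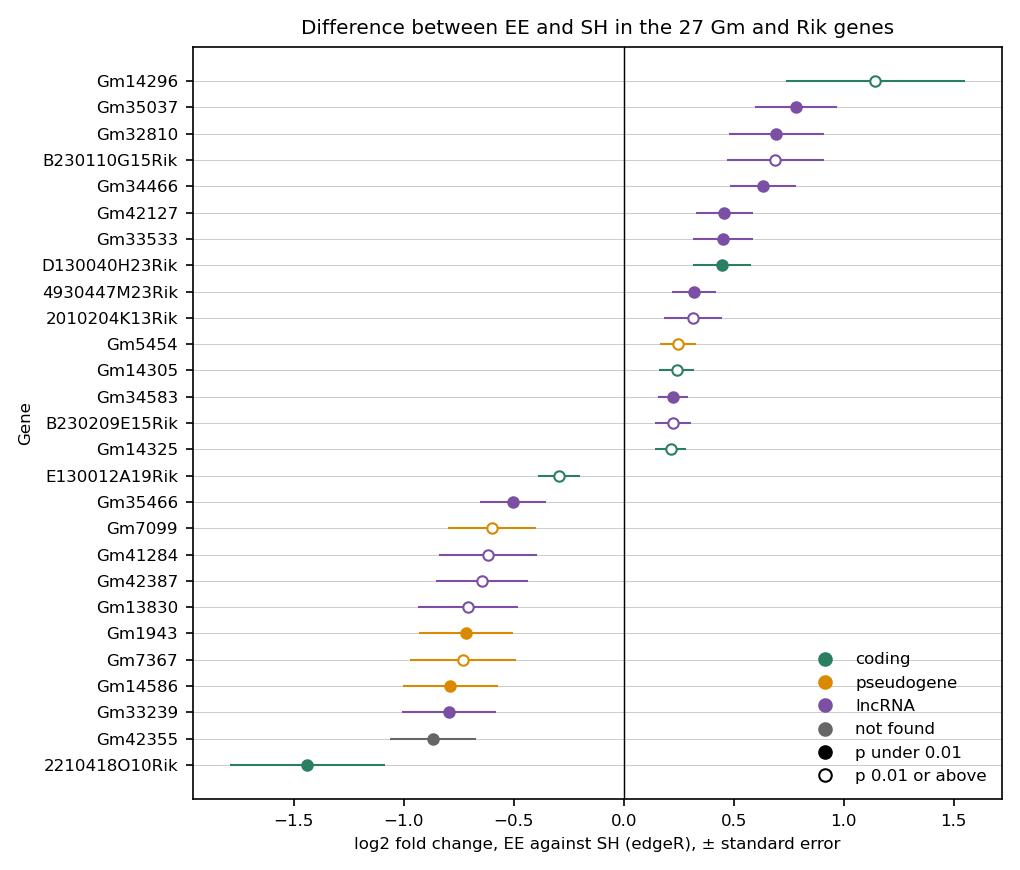
Log2 fold change of EE against SH with its standard error (edgeR) for the 27 genes, coloured by RefSeq class and filled where the unadjusted p was under 0.01. The 4 lower pseudogenes sit together between -0.79 and -0.60, and the opposite ends are held by 2210418O10Rik (-1.44) and Gm14296 (1.14), which have identical exons.

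The calls were sensitive to single libraries. Gm34466, Gm35037 and Gm42355 kept a p under 0.01 in all 6 fits that left out 1 library each, and the other 11 called genes did so in 1 to 4 of them. Leaving out EE replicate 3 ended all 11 of these calls (p of 0.0139 to 0.0388). Leaving out EE replicate 1 ended 9 calls, those of 4930447M23Rik, D130040H23Rik, Gm14586, Gm1943, Gm32810, Gm33533, Gm34583, Gm35466 and Gm42127 (p of 0.0146 to 0.0525). Leaving out EE replicate 2 ended 3, those of 2210418O10Rik, Gm34583 and Gm35466 (0.0105 to 0.0222). Leaving out SH replicate 1 ended 6, those of D130040H23Rik, Gm14586, Gm1943, Gm32810, Gm33533 and Gm34583 (0.0101 to 0.0247). Leaving out SH replicate 2 ended 8, those of 4930447M23Rik, D130040H23Rik, Gm14586, Gm1943, Gm33239, Gm33533, Gm35466 and Gm42127 (0.0126 to 0.0373). Leaving out SH replicate 3 ended 7, those of 4930447M23Rik, D130040H23Rik, Gm1943, Gm32810, Gm33239, Gm34583 and Gm42127 (0.0107 to 0.0343). Over all listed genes, 112 higher and 237 lower calls became 96 and 228 without EE replicate 3, 52 and 88 without EE replicate 1, 58 and 77 without EE replicate 2, 79 and 163 without SH replicate 1, 54 and 111 without SH replicate 2, and 98 and 168 without SH replicate 3. These list counts are totals that include gained calls. Counted in the same way, the 27 had 3 higher and 3 lower calls without EE replicate 3. Without EE replicate 2 they had 7 and 5. In such totals the 27 did not follow the order of the list. The 6 fits also added 13 calls among genes not called with all libraries, 3 each without EE replicate 3, SH replicate 2 or SH replicate 3, 2 without EE replicate 1, and 1 each without EE replicate 2 or SH replicate 1. Without EE replicate 3 the added genes were Gm14305, Gm42387 and Gm7367. All log2 fold changes kept their sign in these fits, and that of D130040H23Rik, called in 1 of the 6, stayed between 0.41 and 0.49.

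The 27 genes were far less abundant than the rest of the list. Their median was 103 reads per library and 1.38 FPKM, against 2403 reads and 14.4 FPKM for the other 557 genes. By class, the median was 523 reads for the coding genes, 147 reads for the lncRNAs and 68.0 reads for the pseudogenes. Of the 50 genes with the lowest mean count on the list, 19 were Gm or Rik genes, which is 38% of those 50 and 70.4% of the 27. The median gene length behind FPKM was 2387 bases against 4027 bases.

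The differences between EE and SH were larger in these genes than in the others, with a median absolute log2 fold change of 0.62 against 0.22. They made up 15 of the 50 largest absolute log2 fold changes, 30% of those 50 and 55.6% of the 27. At similar read counts the sizes were close to those of other genes. Below 100 reads the median was 0.73 in 13 Gm and Rik genes and 0.71 in 20 others, from 100 to 300 reads 0.48 in 6 and 0.45 in 26, and from 300 to 1000 reads 0.27 in 6 and 0.30 in 92. At 1000 reads or more it was 0.22 in 2 and 0.20 in 419. Fewer than 100 reads were counted for 48.1% of the Gm and Rik genes and 3.59% of the others, and the part of read count and of the selection of the list in the size of the differences was not tested.

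**Figure D4:**
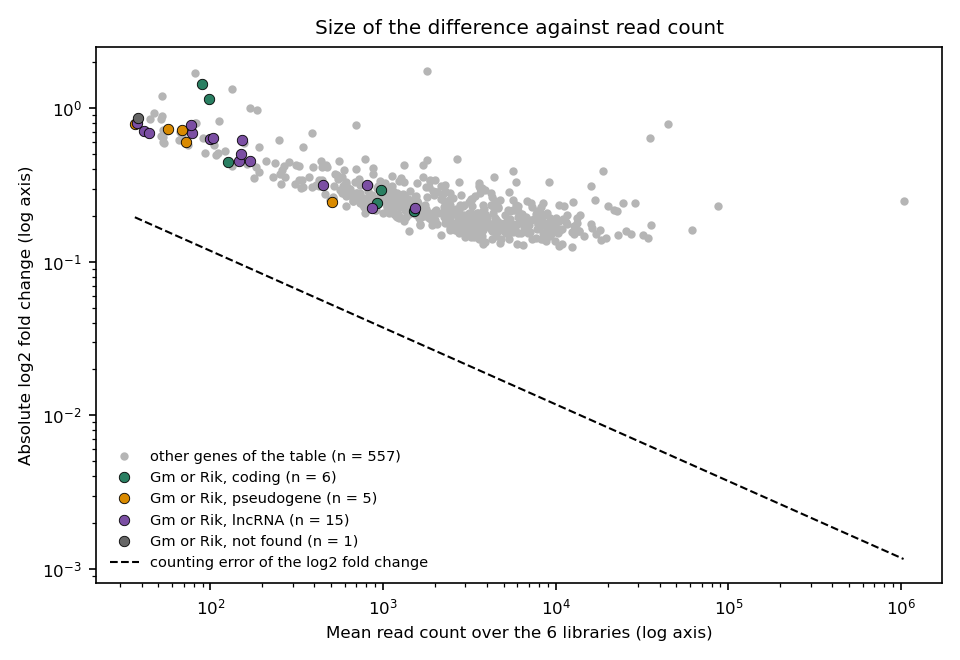
Absolute log2 fold change (log axis) against mean read count over 6 libraries (log axis) for the 27 Gm and Rik genes, coloured by class, and the other 557 genes; the dashed line is the counting error of the log2 fold change. Most Gm and Rik genes sit at the low-count end, where other genes of the list have differences of similar size (0.73 against 0.71 below 100 reads).

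Counting error took a larger part of the spread between libraries in these genes. The coefficient of variation (CV) expected from read counting alone had a median of 9.51% in SH and 8.65% in EE, against 2.13% and 1.98% for the other genes. The observed CV of FPKM was 10.8% in SH and 9.33% in EE, against 4.93% and 4.94%. The median ratio of observed to counting CV was thus 1.26 in SH and 1.35 in EE, against 2.20 and 2.28. In some genes the libraries agreed more closely than counting error, as in Gm42355, with an observed CV of 1.93% in EE where counting alone gives 18.2%, and in Gm1943, with 2.20% in SH where counting gives 11.3%. The identical pair stood at the other end, with 54.2% for 2210418O10Rik and 70.5% for Gm14296 in SH, where counting gives 8.97% and 13.7%. The absolute log2 fold change was a median of 5.11 times its counting error, against 8.64 times in the other genes.

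**Figure D5:**
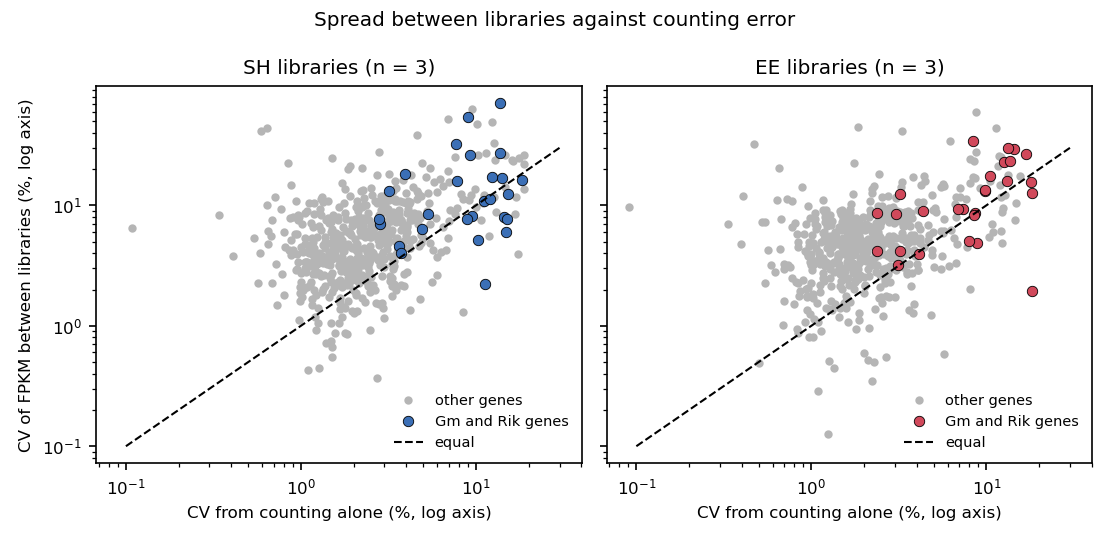
Observed CV of FPKM between the 3 libraries of a group (%, log axis) against the CV from read counting alone (%, log axis), with SH on the left and EE on the right; grey points are the other genes of the list. Gm and Rik genes lie to the right, at median counting CVs of 9.51% and 8.65%, and near the line of equality, while most other genes lie above it.

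Exon composition was known for 25 of the 27 genes, without Gm42355 and Gm42387, and for 544 of the others, and is given as a description with no test. The RefSeq exon length equalled the length behind FPKM in 18 of the 25, and in 200 of 569 listed genes. In the others, composition, near copies and exon overlaps refer to a model other than the counted one, as in Gm32810 (5573 against 11862 bases). Their median GC content was 45.2% against 53.3%, and repeats masked in the genome covered a median of 19.7% of their exons against 8.45%. Higher genes had a median of 44.1% and lower genes 48.7% among Gm and Rik genes, against 44.0% and 56.9% among the others. The 9 genes with near copies over at least 40% of their exons, the 5 pseudogenes and the 4 genes of the chromosome 2 cluster, had 4 higher and 5 lower levels, of which 0 and 3 passed the threshold (33.3% of the 9). The 16 without such copies had 11 higher and 5 lower, of which 8 and 2 passed (62.5% of the 16). Over all listed genes 59.8% passed, 19.2% as higher and 40.6% as lower. Outside the Gm and Rik names the list held 11 other noncoding genes, 4 higher and 7 lower in EE, of which 1 and 3 passed.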

How the data were processed

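The 6 RNA-seq libraries of hippocampus, 3 of SH and 3 of EE, were used. A further 6 libraries, of m6A immunoprecipitated RNA, were not used here. The authors mapped reads to mm10 with Hisat2, counted them per gene with FeatureCounts 1.5.0-p3 and deposited raw counts for the 584 genes they called different. FPKM, computed by the authors from count, gene length and library reads, was deposited beside the counts. Handling of reads with several matches and the strand setting are not given in the sources used here. Columns with the authors' own p-value, log2 fold change and direction were not used, and 0 sample columns remained unmapped.

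Library sizes were the reads behind FPKM, obtained by dividing counts by FPKM and by RefSeq exon lengths (GRCm38.p6, the build called mm10). Of the 569 genes with such a length, 200 gave the same total up to rounding. EE and SH were compared with edgeR 4.0.16 (quasi-likelihood, R 4.3.3) over all 584 genes without a filter or further scaling. A call is an unadjusted p under 0.01, the p-value part of the study's threshold; its fold change part was not applied. All 27 genes were under 0.05 after Benjamini-Hochberg adjustment over the 584, as were 99.8% of the list, since the list was selected on the same data. Standard errors were derived from the F statistic, as the log2 fold change over its square root. In data simulated from these libraries for the same comparison, edgeR called 0% of 384 unchanged genes. It called 87.0% of 100 changed by 0.4 and 95.0% of 100 changed by 0.8 on the log2 scale. The listed genes had a median of 2230 reads per library, against 103 reads for the 27. These rates were not tested separately at the read counts of the 27 or for genes outside the list.

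In RefSeq, 24 of the 27 genes were found by symbol and 2 by an older symbol. Near copies and closest coding genes came from BLAST 2.17.0 against the genome and GENCODE M21 transcripts. The whole spans of 2210418O10Rik and Gm14296 were aligned with MAFFT 7.526. Their exons, and the coding exon shown for the 4 chromosome 2 genes, were compared base by base without an aligner. The closest coding gene of 1 pseudogene is not reported here. C2H2 fingers were counted by a pattern search of the translated RefSeq coding sequence. Counting CV is the inverse square root of the mean count of a group, and intervals are exact Clopper-Pearson intervals. DESeq2 1.42.0 and limma 3.58.1 on log2(FPKM + 0.1) were alternatives, as were other scalings, filters and the exact test of edgeR. Every gene of the rule is named. Values in each library were given for coding genes, pseudogenes and the lncRNAs that were called or among the 5 largest rises or falls, and also for Gm42355. The members and lists were chosen with earlier results of these data known.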

Additional observations from a re-analysis of the deposited data

How the results depend on the processing

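Against 8 higher and 6 lower genes of the 27 (112 and 237 over all 584), the counts under other settings were 13 and 4 with TMM factors (229 and 53), 13 and 3 with DESeq2 size factors in edgeR (228 and 25), 2 and 12 with the sum of the listed genes as library size (25 and 319), 14 and 1 with the DESeq2 Wald test (233 and 29) and 13 and 12 with the exact test of edgeR (159 and 305). They were 4 and 4 among the 16 with a mean of at least 1 FPKM (102 and 234 of 545) and 5 and 2 among the 14 with a mean of at least 100 reads (103 and 233 of 551). At an unadjusted edgeR p under 0.001 the counts were 0 and 0. Other listed genes did pass 0.001, and their share over the list is not given here. All 27 were under 0.05 unadjusted. At an adjusted p under 0.05 the counts were 15 and 12, where 99.8% of all listed genes passed. Limma on log2(FPKM + 0.1) gave 10 and 8 (96 and 162), with a pseudocount of 1 it gave 10 and 7 (102 and 197), and with 0.01 it gave 10 and 9 (95 and 160). Leaving out 1 library at a time gave between 3 and 7 higher and between 3 and 5 lower (52 to 98 and 77 to 228 over all genes). Replicate numbers shared by SH and EE did not pair the libraries (correlations of 0.150, -0.044 and -0.098 between same-numbered libraries), and a replicate block gave 5 and 5, against 78 and 136 over all genes. Chosen after seeing the data, summing the identical pair gave 9 and 6 among the other 25 (112 and 239 of 583), and leaving out genes with near copies over at least 50% of their exons gave 9 and 7 among the remaining 19 (119 and 251 of 535). The causes of these shifts were not tested. TMM factors and DESeq2 size factors came from the listed genes alone, all of them selected for a difference. No log2 fold change of the 27 genes changed sign in any setting. Counts under 100 reads in 13 of the 27 genes limit the precision of their differences.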
